A study of Mus musculus with 6 samples.

Results

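The Cyp4a gene cluster of mouse chromosome 4 was described here through its DNase I hypersensitive sites in the livers of C57BL/6 mice fasted for 24 h (3 libraries) and of C57BL/6 mice fed ad libitum (3 libraries). DNase I cuts DNA where chromatin is accessible, and each library came with its own list of hotspots, the stretches with a local excess of sequenced ends. Liver was taken at the start of the light phase in both groups, and no source used here gives age or sex. The labels number the replicates but do not tie each to its own animal, and a p-value here covers only the spread among these libraries, which may be technical. Whole liver was used, so open chromatin in more cells and more open chromatin per cell cannot be told apart.

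The sites were chosen by position and by hotspot calls: the hotspots of all 6 lists were merged where they overlapped by at least 1 bp, and the merged regions that touched chromosome 4 from 114950000 to 115295000 (mm9) were kept. That gave 40 regions of 75169 in the series. They are called by their mm9 start below. Their widths ran from 252 to 3637 bp (median 932 bp, against 757 bp over all merged regions). The window was proposed with earlier results of these data known, so the tests below describe these libraries and are not independent evidence.

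Cyp4a proteins are cytochrome P450 enzymes that add a hydroxyl group to the terminal (omega) carbon of fatty acids, the first step of a route that turns them into dicarboxylic acids for breakdown in peroxisomes. In mouse liver Cyp4a10 and Cyp4a14 are classic targets of PPAR alpha, a nuclear receptor activated by fatty acids, and their RNA is known to be induced by fasting and by fibrate drugs. Cyp4a12a is known as a male-biased hydroxylase of arachidonic acid, Cyp4a12b is its close copy, and Cyp4a31 and Cyp4a32 are close relatives of Cyp4a10. In the RefSeq table (GRCm38.p6, used for names and order) the coding genes after Cyp4x1 follow each other as Cyp4a29, Cyp4a12a, Cyp4a12b, Cyp4a30b, Cyp4a14, Cyp4a10, Cyp4a31, Cyp4a32 and Cyp4b1. The choice of the window places Cyp4a14 and Cyp4a10 near 115160000 to 115210000 in mm9, a stretch of 50 kb. No other region was assigned to a gene, since the annotation used here is of another build. These genes are close copies of each other, and no source used here tells how reads that match several copies were placed.

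Of the 6 genes Cyp4a10, Cyp4a14, Cyp4a31, Cyp4a32, Cyp4a12a and Cyp4a12b, 1 had an entry in the table of promoter sequences, Cyp4a32. It is shown with the promoter of Cyp4a30b, the neighbour of Cyp4a14 in gene order, so that the letters of 2 promoters of the cluster can be compared. Both are the 250 bases before the start site, plus strand of chromosome 4, from RefSeq (GRCm38.p6), and no hotspot was placed on them.
Cyp4a32: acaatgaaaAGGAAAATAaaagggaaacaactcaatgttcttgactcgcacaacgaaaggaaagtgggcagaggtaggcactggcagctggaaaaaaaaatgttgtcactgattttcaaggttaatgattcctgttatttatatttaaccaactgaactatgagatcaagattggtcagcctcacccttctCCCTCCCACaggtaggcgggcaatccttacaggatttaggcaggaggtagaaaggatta
Cyp4a30b: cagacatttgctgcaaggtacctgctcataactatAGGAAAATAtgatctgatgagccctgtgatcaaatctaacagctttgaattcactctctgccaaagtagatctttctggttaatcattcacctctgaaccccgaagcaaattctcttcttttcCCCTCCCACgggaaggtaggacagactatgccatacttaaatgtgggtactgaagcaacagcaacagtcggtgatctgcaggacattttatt
Capitals mark the longest runs of letters that both share, 9 bases each, chosen for their length alone. CCCTCCCAC began 59 bases before the start of Cyp4a32 and 92 bases before that of Cyp4a30b, and was present on either strand in 1.69% of the 32851 promoters of the table over the same 250 bases. AGGAAAATA began 241 and 215 bases before those starts and was present in 0.521% of promoters. The AGGTCA motif of nuclear receptors was searched on both strands of the 300 bases from 250 before to 50 after the start. It was present 0 times in either and at least once in 16.3% of all promoters. Cyp4a29 and Cyp4b1, also in the promoter table, had it 1 time and 0 times. PPAR alpha binds with its partner to a direct repeat of this motif with 1 base between. That repeat, with up to 2 mismatches over its 12 letters and searched in the same way, matched in 3.86% of all promoters. It had 0 matches in those of Cyp4a29, Cyp4a30b, Cyp4a32 and Cyp4b1, which says only that these letters are not in these windows.

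The 6 lists held 49682 to 63476 hotspots each. Within each library every maximum tag density was a whole multiple of a single step (100% within 0.05 step), and if that step is 1 tag the libraries differed in depth by up to 1.90 times, with fasted replicate 2 and fed replicate 3 the deepest. The median hotspot was then 44 to 57 tags high. The density scale is the authors' own, and no source used here explains it. Fasted replicate 2 had the lowest median density, 10.3 over all its hotspots, against 16.2 and 16.6 in the other fasted libraries and 17.7, 16.5 and 12.1 in the fed libraries. Fold changes were therefore taken after centring each library.

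The fasted libraries had more of the window in hotspots than the fed libraries. They held 27, 36 and 30 hotspots there, covering 26.7, 33.0 and 27.0 kb, against 24, 23 and 30 hotspots covering 18.0, 17.0 and 24.3 kb in the fed libraries. The covered length averaged 28.9 ± 3.57 kb in fasted and 19.8 ± 3.97 kb in fed libraries (SD, n = 3 each), and its ranges did not overlap. The ranges of the number of hotspots overlapped. The average density over the covered bases was 16.7, 10.7 and 17.9 in fasted libraries, against 9.62, 8.32 and 7.44 in fed libraries. The hotspot numbers, covered lengths and average densities move with how much was called in each list. The average densities are also not centred, and fasted replicate 2 and fed replicate 3 had the lowest median densities over their lists (10.3 and 12.1). As a share of each library's hotspots, the window held 0.0544%, 0.0568% and 0.0594% in fasted libraries, against 0.0466%, 0.0452% and 0.0476% in fed libraries. The covered length of whole lists, and how often other windows separate the groups, are not given here.

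**Figure D1:**
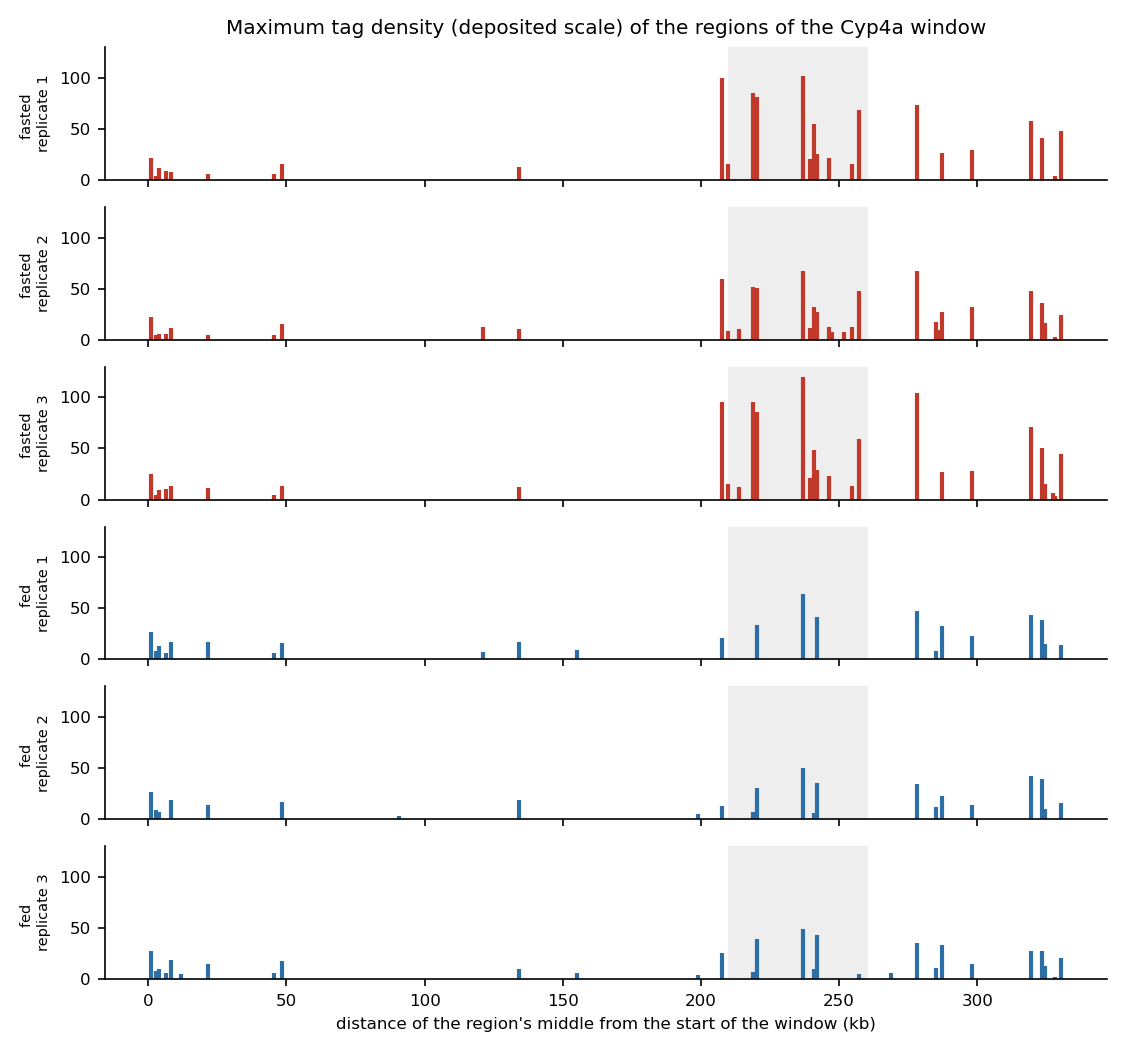
Maximum tag density (deposited scale, not centred) of the 40 regions in each library, against the distance in kb of each region's middle from the start of the window, with fasted libraries in red and fed libraries in blue. The grey band is the stretch of 50 kb near Cyp4a14 and Cyp4a10, where the fasted libraries carry densities up to 120 and several sites without a fed counterpart.

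Of the 40 regions, 17 were called in all 6 libraries and could be compared by fold change, 4 were called in all 3 fasted and no fed libraries, and 0 had the reverse pattern of all 3 fed and no fasted calls. The other 19 had a partial pattern of calls. Over all merged regions calls in every fasted library alone were found for 1.17%, and calls in every fed library alone for 1.57%. Where a list lacks a region, the density there is unknown and was not taken as 0.

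**Figure D2:**
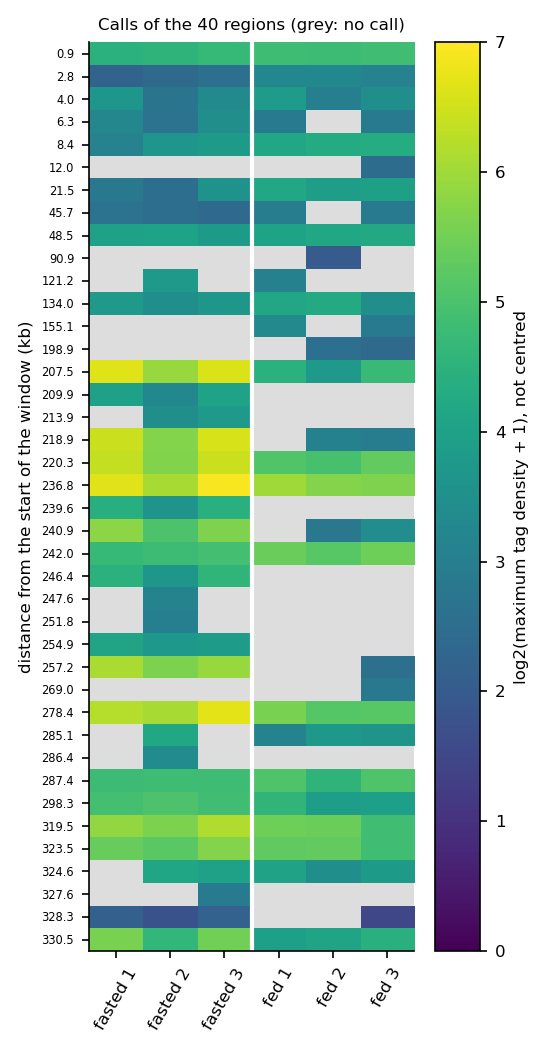
Calls of the 40 regions (rows, by the distance of their middle from the start of the window in kb) in the 3 fasted libraries on the left and the 3 fed libraries on the right. Colour is log2(maximum tag density + 1), not centred, and grey marks a region that a library did not call. The 4 rows filled on the left and grey across the right are the sites of all fasted and no fed libraries.

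Among the 17 regions of all 6 libraries, 7 were higher and 3 were lower in fasted livers (limma with Benjamini-Hochberg adjustment over 37044 regions, adjusted p under 0.05). Over all 37044 regions 7.89% were higher and 7.84% were lower. The 7 that rose all lay from 115155706 on and the 3 that fell all lay between 114952213 and 114971787. The median log2 fold change of the 17, fasted minus fed, was -0.01, against 0.03 over all regions, since the changes ran in both directions, from -0.98 to 2.14. Every centred fasted library lay above every fed library at 8 of the 17, and below at 5 of the 17, against 16.8% and 14.6% of all regions.

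**Figure D3:**
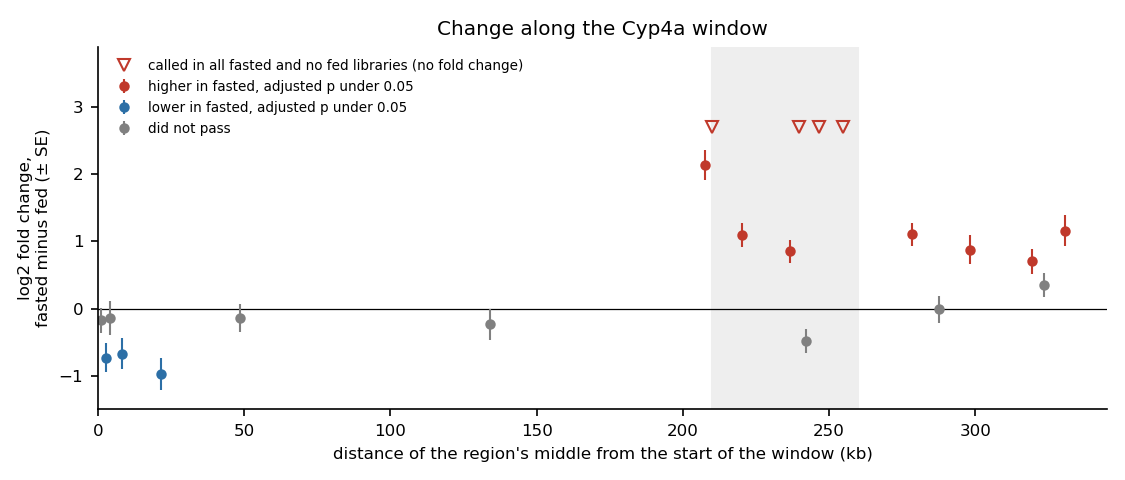
Log2 fold change (fasted minus fed, ± SE from limma, 3 libraries in each group) of the 17 regions called in all 6 libraries, against the distance in kb of each region's middle from the start of the window. Red and blue points passed adjusted p under 0.05 as higher (7) and lower (3) in fasted, grey points did not pass, and open triangles mark the 4 regions of all fasted and no fed libraries, which have no fold change and were drawn at a fixed height.

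The strongest rise among the 17 regions lay just before the Cyp4a14 and Cyp4a10 stretch, at 115155706 to 115159342. Its maximum tag density was 99.9, 59.4 and 95.7 in the fasted libraries, against 21.3, 12.7 and 25.2 in the fed libraries, and the groups did not overlap. The log2 fold change was 2.14 (limma, SE 0.22, adjusted p = 9.88e-07), the 16th largest rise among the 37044 regions. The called stretch was also longer in fasted livers: the fasted hotspots were 3398, 3330 and 3189 bp long, and the fed hotspots 902, 695 and 853 bp, at the left end of the region. The maxima of the 2 groups may therefore stand at different bases of the region. In rank by density, its fasted mean of 85.0 ± 22.2 lay at percentile 89.7 of all shared regions and its fed mean of 19.7 ± 6.37 at percentile 41.6 (SD, n = 3 each).

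Inside the Cyp4a14 and Cyp4a10 stretch 13 regions were found, and 10 of them were called in all 3 fasted libraries while 3 were called in all 3 fed libraries. Over all merged regions 56.0% were called in all 3 fasted and 55.7% in all 3 fed libraries, and over the whole window 27 and 19 of the 40 regions were. The 3 regions with 6 calls were open in both states. At 115186242 to 115187324, the densest region of the window, the density was 101, 67.1 and 120 in fasted libraries, against 63.6, 50.6 and 49.0 in fed libraries. Its log2 fold change was 0.85 (limma, SE 0.17, adjusted p = 0.00115), without overlap of the groups, and its fed mean already stood at percentile 79.6 of all shared regions. The region at 115169795 to 115170807 had 81.1, 50.1 and 85.7 in fasted libraries, against 33.5, 30.4 and 38.9 in fed libraries. That is a log2 fold change of 1.10 (limma, SE 0.18, adjusted p = 0.000238), again with every fasted library above every fed one.

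The third region with 6 calls in that stretch went the other way without passing the test. At 115191513 to 115192554 the density was 25.0, 26.6 and 28.8 in fasted libraries, against 41.2, 35.6 and 42.8 in fed libraries. The fasted libraries were all below the fed ones, with a log2 fold change of -0.48 (limma, SE 0.18, adjusted p = 0.0751). It passed as lower with depth as a covariate (-0.57, limma adjusted p = 0.0482) and among the upper 50% of regions by density (-0.56, limma adjusted p = 0.0368). Only 138 bp separated it from the region at 115190421, whose density was higher in fasted libraries. With hotspots merged within 150 bp both fell in a single region, whose log2 fold change was 0.21 (limma, adjusted p = 0.516).

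The 4 regions called in all fasted and no fed libraries all lay in this stretch or across its first edge. At 115195794 to 115197094 the fasted density was 21.3, 12.0 and 22.7, and this region ranked 73rd by mean density among the 879 regions of this kind in the series. The region at 115189344 to 115189839 had 20.4, 11.2 and 20.9 in fasted libraries and ranked 93rd. At 115204339 to 115205410 the fasted density was 15.9, 12.2 and 13.6, and at 115159563 to 115160224 it was 15.0, 8.68 and 15.4. All 4 stood above the median of 8.78 for such regions. Their heights were 44 to 75 tags if 1 step is 1 tag, close to the median hotspot of a library. The site at 115159563 began 220 bp past the region with the strongest rise.

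A further 3 sites of the stretch were strong in fasted livers and weak or uncalled in fed livers, and are named here after their values were seen. The region at 115168256 to 115169476 had 85.4, 51.3 and 95.0 in fasted libraries, against 7.49 and 6.64 in fed replicates 2 and 3 and no call in fed replicate 1. At 115206185 to 115208208 the fasted density was 68.1, 48.0 and 59.3, against 5.04 in fed replicate 3 and no call in the other fed libraries. The region at 115190421 to 115191374 had 54.5, 32.0 and 48.7 in fasted libraries, against 6.00 and 9.84 in fed replicates 2 and 3 and no call in fed replicate 1. The fed calls at these 3 sites were 16 to 43 tags high if 1 step is 1 tag, and the fasted calls 161 to 314.

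These sites entered no fold change above, because a call was missing. In a fit added after the data were seen, which asked for 2 calls in each group and left missing values out, the region at 115168256 had a log2 fold change of 3.28 (limma, SE 0.23, adjusted p = 1.91e-08, fed replicate 1 left out). The region at 115190421 had 2.41 (limma, SE 0.25, adjusted p = 1.37e-06, fed replicate 1 left out). The same fit admitted 3 more regions of the window, none of which passed: 114955927 (0.35, limma adjusted p = 0.42), 114995296 (-0.30, limma adjusted p = 0.494) and 115274157 (0.38, limma adjusted p = 0.371). Fed replicate 2 was left out at the first and second of these and fasted replicate 1 at the last. Of the 22 regions of the window in the added fit, 9 were higher and 3 were lower. Over all 43934 regions of that fit 3037 were higher and 3179 were lower. The region at 115206185 had too few fed calls for a value there. The missing fed density is unknown, so the values at 115168256 and 115190421 rest on 2 fed libraries each. The hotspots were also longer in fasted livers: at 115206185 they were 1901, 1991 and 1734 bp, against 399 bp in the single fed library with a call.

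The remaining 3 regions of that stretch were seen in fasted libraries only. At 115163507 the density was 10.1 and 12.7 in fasted replicates 2 and 3. The regions at 115197491 and 115201697, 252 and 279 bp wide, were called in fasted replicate 2 alone, at 7.70 and 7.10. None of the 13 regions of the stretch was called in fed libraries alone.

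Past the Cyp4a14 and Cyp4a10 stretch, on the side where the gene order has Cyp4a31 and Cyp4a32, 4 of 6 regions with 6 calls rose and 0 fell. At 115227812 to 115228980 the density was 72.9, 66.9 and 104 in fasted libraries, against 47.4, 34.5 and 35.0 in fed libraries, a log2 fold change of 1.10 (limma, SE 0.17, adjusted p = 0.000113). The region at 115278780 to 115282257, the last of the window, had 47.4, 23.9 and 44.8 in fasted libraries, against 14.3, 16.1 and 20.8 in fed libraries. Its log2 fold change was 1.16 (limma, SE 0.23, adjusted p = 0.00117), and the groups did not overlap at either region. This last region was 1 hotspot of 3478 and 3274 bp in fasted replicates 1 and 3, 2 shorter hotspots in fasted replicate 2, fed replicate 1 and fed replicate 3, and 1 of 1832 bp in fed replicate 2.

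At 115247647 to 115248863 the density was 29.2, 32.2 and 28.2 in fasted libraries, against 22.8, 13.9 and 14.4 in fed libraries, a log2 fold change of 0.88 (limma, SE 0.21, adjusted p = 0.00639). The region at 115268896 to 115270151 had 57.3, 47.8 and 71.1 in fasted libraries, against 43.0, 42.3 and 27.9 in fed libraries, a log2 fold change of 0.70 (limma, SE 0.18, adjusted p = 0.0111). This last call depended on single libraries: the log2 fold change was 0.62 (limma, adjusted p = 0.0528) without fasted replicate 3 and 0.53 (limma, adjusted p = 0.0731) without fed replicate 3. Its neighbour at 115272988 did not pass, with 40.6, 36.3 and 50.9 in fasted libraries, against 38.2, 39.0 and 27.7 in fed libraries (log2 fold change 0.35, adjusted p = 0.22, limma). The region at 115236908 had nearly equal densities, 26.7, 27.4 and 27.2 in fasted libraries, against 32.4, 22.5 and 33.0 in fed libraries (log2 fold change -0.01, SE 0.20).

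In 6 of the 7 regions that rose, fasted replicate 2 had the lowest deposited density of the fasted libraries, as it had over its whole list. Centring removes the part of this that is common to all regions. With densities as deposited and no centring, the same counts of 7 higher and 3 lower regions were found. Over all 37044 regions 1946 were then higher and 3189 lower.

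**Figure D4:**
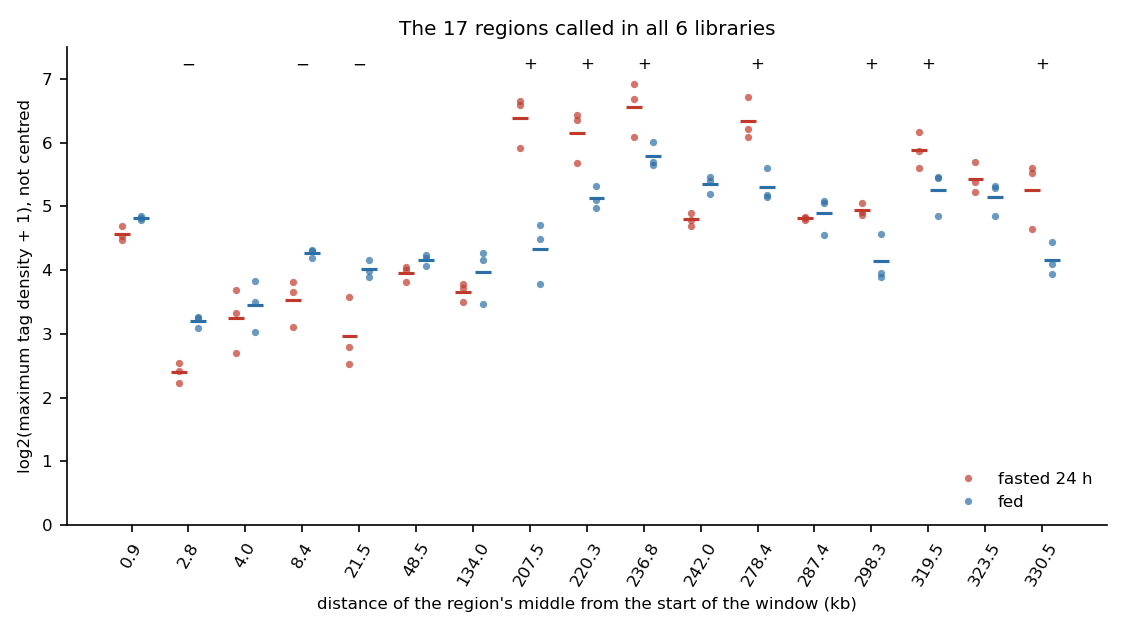
Log2(maximum tag density + 1), not centred, of the 17 regions called in all 6 libraries, with 1 point for each library and a bar at the mean of each group (fasted 24 h in red on the left, fed in blue on the right, n = 3 each). Plus and minus signs mark the 7 regions higher and the 3 regions lower in fasted livers at adjusted p under 0.05. The minus signs stand among the first 5 regions and the plus signs from the eighth region on.

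All 3 falls of the window lay before the stretch of Cyp4a14 and Cyp4a10. Of the 8 regions with 6 calls there, 1 rose (the region at 115155706 described above), 3 fell and 4 did not pass. The largest fall lay at 114971154 to 114971787, with 5.96, 4.74 and 10.9 in fasted libraries, against 16.9, 13.9 and 14.9 in fed libraries. Its log2 fold change was -0.98 (limma, SE 0.24, adjusted p = 0.00652), and the groups did not overlap. It passed without each of the 6 libraries in turn.

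The other 2 falls were smaller than this and depended on single libraries. At 114952213 to 114953421 the density was 3.69, 4.34 and 4.84 in fasted libraries, against 8.46, 8.62 and 7.55 in fed libraries, a log2 fold change of -0.73 (limma, SE 0.22, adjusted p = 0.0242). At 114957875 to 114958843 it was 7.66, 11.6 and 13.0 in fasted libraries, against 17.3, 18.7 and 18.996 in fed libraries, a log2 fold change of -0.67 (limma, SE 0.23, adjusted p = 0.0463). Neither passed without fasted replicate 1, fasted replicate 3 or any single fed library, although the direction held and the fasted libraries were all below the fed ones in both. Without those libraries in turn 1 region was lower, not 3. The hotspots of fasted replicates 1 and 3 at 114952213 did not overlap each other, so their maxima stand at different bases. Fasted heights there were 13, 22 and 16 tags if 1 step is 1 tag. With hotspots merged within 150 bp this region joined its neighbour, 44 bp away, and the log2 fold change was -0.22 (limma, adjusted p = 0.6145).

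The 4 regions of this side that did not pass had log2 fold changes of -0.13 to -0.23. The first region of the window, at 114950544, had 21.3, 22.3 and 24.8 in fasted libraries, against 27.2, 26.6 and 27.9 in fed libraries. At 115083688 the density was 12.8, 10.3 and 12.1 in fasted libraries, against 16.9, 18.4 and 10.1 in fed libraries, and the groups overlapped. Calls were sparse from 114999196 to 115148675, where 4 regions were found and 1 of them had 6 calls. The regions at 115104775 and 115148675 were each called in 2 fed libraries and in no fasted one, at 4.35 to 8.83.

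The 19 regions with partial calls include the 3 strong sites above, and the rest reached a density of at most 17.2. In 7 of the 19 a single library had the call, and 5 of those 7 calls came from the 2 deepest libraries. The same shares over all merged regions are not given here, so these counts are not a trait of the window. In 2 of the 19 all fed libraries and only part of the fasted ones had the call. These were 115234824, with 17.2 in fasted replicate 2 against 7.72, 12.4 and 11.2 in fed libraries, and 115274157, with 16.6 and 15.1 in fasted replicates 2 and 3 against 15.4, 10.1 and 13.0 in fed libraries. At 115277902, beside the last region, the density was 3.40, 2.37 and 3.63 in fasted libraries, against 1.83 in fed replicate 3. At 12 tags in each fasted library and 8 in the fed one, if 1 step is 1 tag, these heights carry a large counting error. Regions at 114955927 and 114995296 lacked only the call of fed replicate 2.

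Outside the window, 11606 bp before the first edge, the region at 114937568 had 22.1, 18.6 and 23.6 in fasted libraries, against 23.2, 24.4 and 25.6 in fed libraries. Past the last edge the next region began 20638 bp away, at 115315638, with 9.67 in fasted replicate 2, against 8.62 and 10.3 in fed replicates 2 and 3. The window of equal length before it (345 kb) held 11 regions, and of its 8 with 6 calls 1 rose and 0 fell. The window of equal length after it held 16 regions, and of its 5 with 6 calls 0 rose and 0 fell. Neither held a region called in all fasted and no fed libraries, and fold changes there ran from -0.19 to 0.89 before and from -0.01 to 0.31 after it on the log2 scale. No test of the difference between these windows and the Cyp4a window was made.

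The 3 regions most like the one at 115155706, by the distance between centred log2 densities over the 6 libraries, lay on other chromosomes. They were on chromosome 15 (57852829 to 57854956, distance 0.80), chromosome 11 (11744103 to 11745705, distance 0.83) and chromosome 10 (76484856 to 76486062, distance 0.87). The first had 76.9, 66.7 and 92.0 in fasted libraries, against 31.6, 13.5 and 18.8 in fed libraries. With 6 libraries in 2 groups, such a likeness follows from a similar level in each group.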

How the data were processed

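The 3 fasted and 3 fed liver libraries were made by DNase I digestion of nuclei (40 U/ml, fragments of 100 to 500 bp), per the labels' protocols. The submitters' processing notes name CASAVA 1.8 and mm9. Aligner, hotspot caller and scaling stay unnamed in the sources used here. Position, maximum and average tag density, z-score and p-value are the columns per the file headers. Hotspots were called per library, and both densities are a coverage signal made by the authors. Left unused were the z-score, a score made by the authors, and their deposited p-value.

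Hotspots on chromosomes 1 to 19 and X that overlapped by 1 bp were merged, and a region's value in a library is its highest maximum density. Regions called in all 6 libraries were tested on log2(density + 1), centred on each library's median over these regions, with limma 3.58.1 in R 4.3.3 (trended eBayes, Benjamini-Hochberg over all regions, threshold 0.05). No count model was used, because heights are not counts per region. Fold changes on this scale understate the change of weak regions. Heights in tags assume that 1 step is 1 tag, and no interval was computed from them. This fit was first run on simulated data with the same spread for every region and no missing calls, so that run does not test those features of these data. No replicate was treated as a duplicate of another. Pairs within a group differed beyond counting noise (squared z averaging 2.18 to 5.77, against 1 for noise alone), if heights vary as counts of tags. That assumption was not tested, and this value cannot tell whether replicates came from separate animals. Plots were drawn with matplotlib 3.10.9, and tables made with pandas 2.3.3 and numpy 2.4.6 under Python 3.11.15.

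The window, gene lists and tests were chosen with earlier results of these data known. Named in full are all regions past the threshold, those called in all 3 libraries of 1 group and none of the other, the 5 densest with 6 calls and those at the edges. Also named are the 3 regions outside the window most like the region with the largest change. Other regions named were chosen after their values were seen. The RefSeq tables (GRCm38.p6) matched all 6 genes by symbol for names and order, and 1 for a promoter. Pathway genes, liver markers and proteins were not analysed here, because no annotation of mm9 and no protein table was used. Alternatives were other pseudocounts, centring, density measure, filters, calls and merging, a depth term, a replicate block and leaving out each library.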

Additional observations from a re-analysis of the deposited data

How the results depend on the processing

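The 10 regions that passed kept their direction under all 20 alternatives to the fit wherever they were tested, and 170 of 191 values passed. Most of the 21 others belong to the regions at 114952213 and 114957875. The 7 higher regions of 17 became 14 of 29 with missing values set to the lowest density of the library. Over all regions of that fit 3435 of 52890 were higher. On leaving out each library, 6 to 9 of 17 to 19 regions of the window were higher. In those fits 1976 to 3212 of 37146 to 38442 regions of the series were higher. The higher regions became 5 of 13 when hotspots had to cover at least 50% of a region, against 2430 of 32645 in the series. Under that rule the strongest rise, at 115155706, and the region at 115278780 were not in the fit. Of the 7 added to make 14, 4 had no fed call, so their fed values were all set by this rule, and 3 had fed calls in 1 or 2 libraries (115168256, 115190421 and 115206185). The 3 lower regions became 1 with quantile normalization, 0 with missing values at the lowest density and 1 to 3 on leaving out each library. Over all regions of those fits 2791 of 37044, 2693 of 52890 and 2021 to 2738 of 37146 to 38442 were lower. The cause of these losses was not tested. In the upper 50% by density, where fewer regions were tested, none of the 3 was in the fit. The 1 lower region there, of 10 tested, was 115191513, which did not pass in the main fit. Over all regions of that fit 1540 of 18522 were lower. Libraries that share a number showed no common deviation from their group means (r of -0.067, -0.030 and -0.167 over regions), and the replicate block gave 7 higher and 2 lower. Depth as a covariate gave 7 higher and 4 lower. Of all 37044 regions, the block gave 2535 higher and 2539 lower, and the depth term 2983 higher and 2574 lower. Of the regions that did not pass, 3 changed sign without passing: 115191513 (0.21 merged within 150 bp), 115236908 (0.077 by average density, 0.060 with missing values at the lowest density) and, on leaving out each library, 115236908 (-0.17 to 0.11) and 114953466 (-0.34 to 0.077). The median log2 fold change became 0.93 with missing values at the lowest density, 0.70 in the upper 50% by density, 0.28 with hotspots merged within 150 bp and 0.35 with 2 calls in each group (added after the data were seen), and -0.066 to 0.40 on leaving out each library. Other regions entered or left the fit in these settings by construction, except that hotspots were joined in the one at 150 bp. Regions called in all fasted and no fed libraries numbered 4 to 5 under other lists and 4 to 6 on leaving out each library. Those of all fed and no fasted libraries numbered 0 under other lists and 0 to 1 on leaving out each library. When hotspots had to cover at least 50% of a region, 115195794 and 115204339 were not called in all fasted libraries. The 5 counted under that rule include 115155706, 115168256 and 115206185, which have fed hotspots too short to count there. Calls made in a single library were 8 to 48 tags high if 1 step is 1 tag, and whether depth decided them was not tested. Pathway, marker and protein results were not run.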
